A study of Mus musculus with 8 samples.

Results

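H3K27ac, the acetylation of histone H3 at lysine 27 found at active promoters and enhancers, was examined at 4 genes that handle progranulin or act beside it in lysosomes: Psap, Lrp1, Sort1 and Tmem106b. Members were all regions that the deposited table assigns to one of these names, which gave 82 of 129304 regions and 4 of 18707 named genes. Psap had 39 regions, Lrp1 29, Sort1 11 and Tmem106b 3. Each region was 800 bp wide. The study compared microglial nuclei of wild-type (WT) C57BL/6 mice with those of mice without functional Grn, the gene of progranulin (GrnKO). All mice were 2 years old, and brain nuclei were sorted as PU.1+, OLIG2- and NEUN-, where PU.1 is a myeloid transcription factor. Each genotype had 2 H3K27ac libraries and 2 input libraries of unprecipitated chromatin, each pair from a pool of 2 mice. The mutant allele is not given in the sources used here.

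Progranulin is a secreted glycoprotein that reaches the lysosome by several routes and is cut there into granulin peptides. Sortilin, the product of Sort1, binds its tail at the cell surface and carries it inward. Prosaposin, the product of Psap and the precursor of the saposins that help lysosomal enzymes degrade sphingolipids, binds progranulin and takes it along through LRP1, a large endocytic receptor for many ligands, or through the cation-independent mannose 6-phosphate receptor. TMEM106B is a membrane protein of late endosomes and lysosomes and is known as a genetic modifier of progranulin-linked frontotemporal dementia. In the brain, microglia are a main source of progranulin.

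The table places regions at 2 annotated starts of Psap on chromosome 10, 6833 bp apart, and regions upstream of the first were called higher in GrnKO while regions around the second were called lower. The 250 bases before each start are shown for this reason, and those of Tmem106b because the region at its start carried most of its signal. They come from RefSeq on GRCm38.p6 and read 5′ to 3′ on the strand of the gene, and 3 of the 4 members matched the promoter table. The first Psap window is chr10:60277378-60277627, the second is chr10:60284211-60284460 and the Tmem106b window is chr6:13069509-13069758, all on the plus strand. Capitals mark matches to a motif searched on both strands.
Psap first start: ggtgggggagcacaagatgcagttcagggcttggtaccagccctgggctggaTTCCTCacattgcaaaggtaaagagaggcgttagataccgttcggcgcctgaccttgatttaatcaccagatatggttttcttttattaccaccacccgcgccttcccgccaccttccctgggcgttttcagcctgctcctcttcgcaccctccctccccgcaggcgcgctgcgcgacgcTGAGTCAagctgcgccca
Psap second start: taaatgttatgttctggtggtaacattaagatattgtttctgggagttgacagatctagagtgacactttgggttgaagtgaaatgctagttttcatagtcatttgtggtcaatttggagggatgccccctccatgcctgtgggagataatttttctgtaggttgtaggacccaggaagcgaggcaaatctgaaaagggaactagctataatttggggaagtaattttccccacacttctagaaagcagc
Tmem106b: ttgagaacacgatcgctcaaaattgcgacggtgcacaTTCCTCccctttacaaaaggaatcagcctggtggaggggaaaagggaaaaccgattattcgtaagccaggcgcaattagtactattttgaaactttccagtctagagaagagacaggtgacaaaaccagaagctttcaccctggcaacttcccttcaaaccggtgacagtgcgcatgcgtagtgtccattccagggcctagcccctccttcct
GAGGAA, the core of PU.1-type sites, was found as TTCCTC 198 bases upstream of the first Psap start and 213 bases upstream of the Tmem106b start. It occurs in 23.3% of the 32851 promoter windows of the table. TGACTCA, the AP-1 motif, was found as TGAGTCA 18 bases upstream of the first Psap start and occurs in 4.46% of windows. Neither was found in the second Psap window or in that of Lrp1 (chr10:127621149-127621398, minus strand). The letters TCACGTGA, which resemble lysosomal CLEAR elements, occur in 0.785% of windows and in none of the 4 member windows. The same held for the shorter E-box inside it, CACGTG, which occurs in 6.02% of windows. The M-box type letters TCATGTGA occur in 0.846% of windows and in none of the members. G and C made up 58.8% of the first Psap window, 41.6% of the second, 67.2% of that of Lrp1 and 49.2% of that of Tmem106b.

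The H3K27ac libraries held 15491642.5 to 20030832 tags and the inputs 4078179 to 14415969 tags, and a tag counts 2 aligned read ends. Values are scaled tags, which are tags per 10000000 in a library, after TMM scaling unless the authors' scaling is named. WT replicate 1 stood apart, with 49.4% of its tags in the listed regions against 63.3% to 65.7% in the other H3K27ac libraries. At the Grn promoter the WT libraries held 294 and 311 tags in the authors' scaling and both GrnKO libraries 0, as their labels say. All 8 microglial marker genes had a region within 1000 bp of a start, with summed signal from 6385 to 8346 scaled tags per library. Neuron markers had regions at 2 of 5 genes and summed to 0 to 3.91, with Slc17a7 at 0 in 3 of 4 libraries. Oligodendrocyte markers had regions at all 4 genes (66.3 to 100.5, with Olig2 at 0 in WT replicate 2) and astrocyte markers at 2 of 4 (180 to 216). Border macrophage and monocyte markers had regions at 3 of 6 genes and summed to 219 and 263 in WT against 383 and 322 in GrnKO, with S100a8 at 0 in WT replicate 1. Among them Mrc1 overlapped between genotypes, with 182 and 228 in WT and 231 and 197 in GrnKO. Ms4a7 held 37.2 and 29.6 in WT and 132 and 105 in GrnKO, and S100a8 0 and 5.24 against 20.4 and 18.7. Endothelial markers had regions at 2 of 3 genes and summed to 55.5 and 76.2 in WT against 173 and 180 in GrnKO. The 2 endothelial genes differed in sign, with Flt1 at 12.5 and 31.4 in WT and 144 and 144 in GrnKO, but Pecam1 at 43.0 and 44.8 in WT and 28.6 and 36.2 in GrnKO. What part these other cells had in the results below was not tested, and in sorted bulk nuclei fewer cells of a type and less acetylation per cell cannot be told apart.

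Of the 82 member regions, 80 passed the filter on low tags, and 14 of them differed between genotypes, 9 higher and 5 lower in GrnKO. The test was limma on log2(value + 1) over all 80728 tested regions with Benjamini-Hochberg adjustment, and it called 9.71% of all tested regions (6.8% higher and 2.92% lower) against 17.5% of the members. All called regions belonged to Psap (4 higher and 5 lower of 39) or Lrp1 (5 higher and 0 lower of 28), and none to Sort1 (11 tested) or Tmem106b (2 tested). Because neighbouring regions can overlap and share tags, the members were also counted without overlaps, where 10 of 58 passed (7 higher and 3 lower, against 9.74% of all non-overlapping regions). Both GrnKO libraries lay above both WT libraries in 35 of the 80 members and below them in 22, against 27% and 25.6% of all tested regions. The median log2 change of the members was 0.12, and that of all tested regions was -0.0020. With the authors' scaling, which moved the median of all regions to 0.22, 9 member regions were called (8.56% of all tested regions), none of them lower, and 8 of these were among the 14. Without GrnKO replicate 1 the count was 1 of 80, against 1.65% of all tested regions, and without GrnKO replicate 2 it was 2 of 80, against 2.31%, so in those fits the members were near the share of all regions.

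Summed over its regions, only Lrp1 of the 4 genes differed between genotypes. The gene sums were tested with limma over 15380 genes with Benjamini-Hochberg adjustment, which called 14.4% of genes, 9.54% higher and 4.88% lower. Lrp1 summed to 5970 and 6456 scaled tags in WT, and to 7524 and 8027 in GrnKO. In this and all pairs of values replicate 1 comes first, and for Lrp1 both GrnKO values lay above both WT values. Its sum was 1.25-fold higher in GrnKO (log2 change 0.32, SE 0.077, 95% confidence interval 0.159 to 0.488, limma adjusted p = 0.00997). Psap summed to 7446 and 7912 in WT and to 7231 and 7792 in GrnKO, and the groups overlapped (log2 change -0.03, 95% confidence interval -0.193 to 0.129, limma adjusted p = 0.843). With the authors' scaling, which moved the median of all tested genes from -0.01 to 0.18, the Psap change was 0.16, which is -0.02 relative to that median.

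Sort1 summed to 998 and 979 in WT and to 830 and 877 in GrnKO. Both GrnKO values lay below both WT values, but the difference did not pass the test (log2 change -0.21, 95% confidence interval -0.454 to 0.03, limma adjusted p = 0.259). With the authors' scaling the Sort1 sums overlapped, at 843 and 1017 in WT against 885 and 939 in GrnKO (log2 change -0.02, or -0.20 relative to the median of all genes). Tmem106b summed to 69.2 and 59.3 in WT and to 91.0 and 72.6 in GrnKO. Its GrnKO values lay above its WT values, and its interval was the widest of the 4 (log2 change 0.34, 95% confidence interval -0.252 to 0.929, limma adjusted p = 0.497).

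The Lrp1 call was lost with the authors' scaling (log2 change 0.51 against a median of 0.18 for all genes, limma adjusted p = 0.307). It was also lost without GrnKO replicate 1 (log2 change 0.37) and without GrnKO replicate 2 (0.28). With the input of each pool subtracted the change was 0.35 and was not called (limma adjusted p = 0.197). That fit called 0 of 15380 genes, so this loss is not particular to Lrp1. The inputs over the Lrp1 regions held 275 and 77.5 tags in WT and 86.0 and 115 in GrnKO in the authors' scaling.

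**Figure D1:**
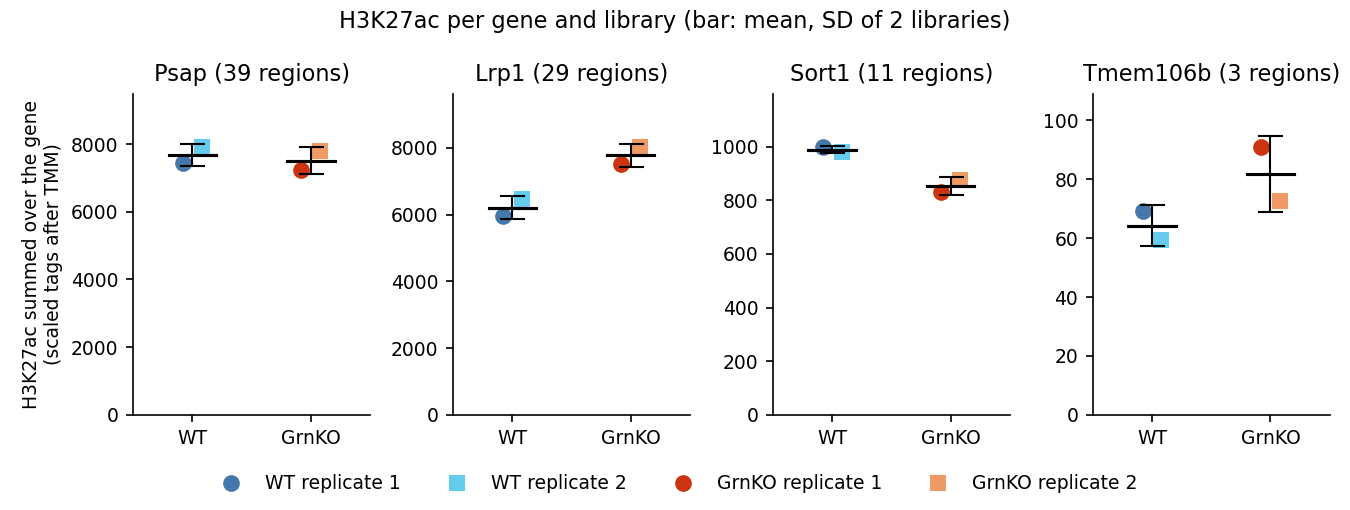
H3K27ac summed per gene in scaled tags after TMM for each of the 4 libraries, 1 panel per member, each on its own axis from 0. The 2 GrnKO points of Lrp1 (7524 and 8027) lie above its WT points (5970 and 6456), those of Sort1 (830 and 877) lie below, and those of Psap overlap.

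Signal per region can be compared between genes, since all regions have the same width. The strongest WT region of Psap held 794 and 879 scaled tags in the WT replicates, that of Lrp1 511 and 514, that of Sort1 234 and 204 and that of Tmem106b 63.7 and 56.8. These 4 levels did not overlap between genes. The strongest Psap region lies in an intron of Cdh23, however, and outside Cdh23 the strongest held 447 and 470 (chr10:60259907-60260707), below the Lrp1 values. At the annotated starts the order in WT was Psap second start (353 and 394), Lrp1 (230 and 291), Psap first start (254 and 137), Tmem106b (63.7 and 56.8) and Sort1 (57.5 and 58.1). Lrp1 and the first Psap start overlapped in their WT values, as did Tmem106b and Sort1.

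Psap, which encodes the ligand that takes progranulin along, had higher H3K27ac at regions upstream of its first start and lower H3K27ac around its second start and in the neighbouring Cdh23, a cadherin gene. The largest called increase by fold was at chr10:60263046-60263846, an intergenic region 14182 bp upstream of the first start. It held 56.7 and 42.2 scaled tags in WT and 104 and 105 in GrnKO, and the groups did not overlap (2.11-fold higher, log2 change 1.08, SE 0.26, limma adjusted p = 0.0114). The smallest p was at chr10:60261429-60262229, 15799 bp upstream, with 254 and 202 scaled tags in WT and 408 and 436 in GrnKO (1.85-fold higher, log2 change 0.90, SE 0.15, limma adjusted p = 0.000849). The input of GrnKO replicate 2 held 44 tags there, 89.8 in the authors' scaling, and the other 3 inputs 0 to 7 tags. Of the 14 called member regions this was the 1 still called in each of the 4 fits that left out a library.

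A second pair of called upstream regions overlapped each other. The region at chr10:60268528-60269328, 8700 bp upstream, held 55.1 and 51.6 scaled tags in WT and 101.5 and 90.4 in GrnKO (log2 change 0.83, SE 0.25, limma adjusted p = 0.0407). The region at chr10:60268849-60269649, 8379 bp upstream, held 69.2 and 90.4 in WT and 148 and 120 in GrnKO (log2 change 0.75, SE 0.23, limma adjusted p = 0.0445). Both GrnKO libraries were above both WT libraries in each, but DESeq2 on tags left them at adjusted p = 0.0810 and 0.0886, and without either GrnKO replicate limma called neither. Of all 14 upstream regions, from 25260 to 3607 bp before the first start, 12 had a positive log2 change and the median was 0.39.

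At the first Psap start, chr10:60277204-60278004, the libraries held 254 and 137 scaled tags in WT and 231 and 236 in GrnKO. WT replicates spanned the GrnKO values, and no difference was called (log2 change 0.32, SE 0.22, limma adjusted p = 0.399). The result turned on the WT replicates: without replicate 2 the change was -0.12, and without replicate 1 it was 0.77 (limma adjusted p = 0.00106).

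Around the second start the differences had the other sign. At the start itself, chr10:60284060-60284860, the libraries held 353 and 394 scaled tags in WT and 292 and 303 in GrnKO. Both GrnKO values were lower, but the region did not pass the threshold (log2 change -0.33, SE 0.14, limma adjusted p = 0.153; 0.0412 without WT replicate 1). The overlapping region 516 bp before the second start, chr10:60283545-60284345, fell from 356 and 375 scaled tags in WT to 243 and 257 in GrnKO (log2 change -0.55, SE 0.14, limma adjusted p = 0.0193).

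Within the intron that follows, 2 overlapping regions were lower in GrnKO. The region at chr10:60286336-60287136, 2275 bp past the second start, held 345 and 303 scaled tags in WT and 201 and 221 in GrnKO (log2 change -0.61, SE 0.15, limma adjusted p = 0.0158). Its neighbour at chr10:60286781-60287581 held 298 and 266 in WT and 184 and 198 in GrnKO (log2 change -0.56, SE 0.16, limma adjusted p = 0.0310). The WT and GrnKO values did not overlap in either. Of the 11 regions of the second start and the following intron, 10 had a negative log2 change.

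In WT the highest signal assigned to Psap lay beyond its end, in introns of Cdh23, and the table gives these regions to Psap by nearest start. At chr10:60314021-60314821, in intron 53 of 68 of Cdh23, the libraries held 794 and 879 scaled tags in WT and 459 and 625 in GrnKO (log2 change -0.64, SE 0.13, limma adjusted p = 0.00414). The overlapping region at chr10:60313429-60314229, in intron 54, held 601 and 699 in WT and 414 and 519 in GrnKO (log2 change -0.48, SE 0.13, limma adjusted p = 0.0244). Both were lower in GrnKO, and all 7 regions of Psap in Cdh23 introns had a negative log2 change. The 30 regions that the table assigns to Cdh23 itself summed to 3534 and 3493 in WT and 2791 and 3049 in GrnKO (log2 change -0.27, limma adjusted p = 0.0533).

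None of the 5 lower Psap regions passed the test with the authors' scaling, where their log2 changes were from -0.26 to -0.41 against a median of 0.22 for all regions. Without GrnKO replicate 1 none of them was called (limma adjusted p from 0.267 to 0.512), and without GrnKO replicate 2 only the one in intron 53 of Cdh23 was. Signal summed over microglial marker promoters was 7345 and 8346 in WT and 6385 and 6610 in GrnKO, with no overlap in 6 of the 8 genes, but in the authors' scaling the sums overlapped (6062 and 8644 in WT, 6904 and 7151 in GrnKO). Their part in the Psap values was not tested.

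The shares of the Psap signal do not depend on the scaling between libraries. The 14 upstream regions held 34.1% and 33.3% of the Psap tags in WT and 48.5% and 45.3% in GrnKO. The second start and following intron held 34.9% and 34.6% in WT and 27.3% and 27.7% in GrnKO, and the Cdh23 introns 23.2% and 25.7% in WT and 15.9% and 19.4% in GrnKO. Between genotypes none of these 3 shares overlapped, and each two-sided exact permutation test gave p = 0.333, the smallest that 2 libraries against 2 allow. The shares of the remaining Psap stretches did overlap. At the first start WT had 3.33% and 1.72%, against 3.24% and 3.06% for GrnKO. The intron between the starts had 3.90% and 4.35% against 4.60% and 4.19%. Later introns had 0.55% and 0.34% against 0.45% and 0.40%. As parts of the same total, the shares are not independent of each other.

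**Figure D2:**
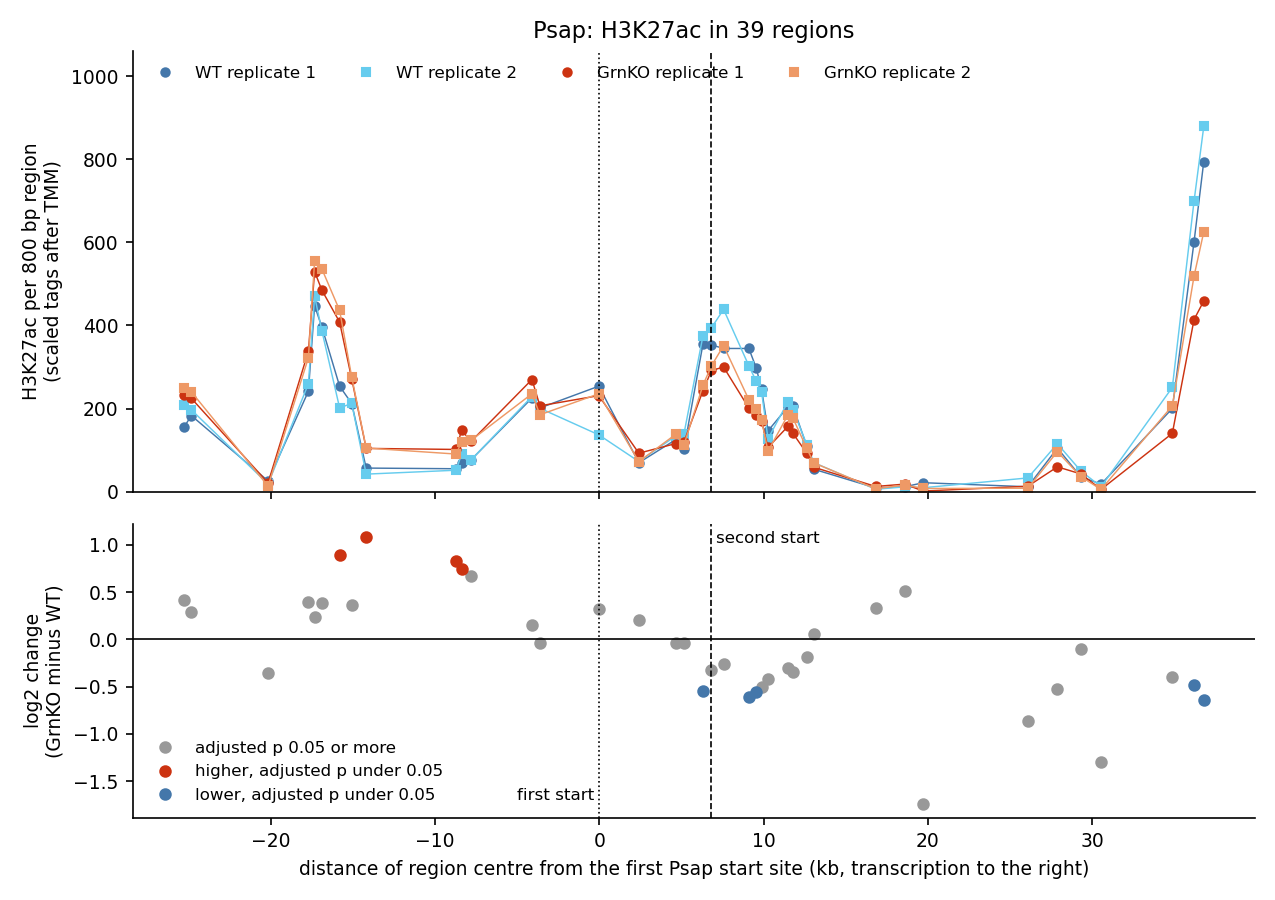
H3K27ac per 800 bp region at Psap in scaled tags after TMM (top) and its log2 change in GrnKO against WT (bottom), by distance in kb of the region centre from the first start, with dotted lines at the starts. The 4 regions called higher lie upstream of the first start, and the 5 called lower lie around the second start, 6833 bp downstream, and in Cdh23.

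Lrp1, the receptor gene on the minus strand of chromosome 10, had higher H3K27ac over a stretch of its introns and at an intergenic region upstream. A run of 3 overlapping regions in intron 6 of 88 was called. The one with the smallest p, chr10:127596475-127597275, lay 24273 bp past the start and held 344 and 331 scaled tags in WT and 500 and 556 in GrnKO (1.56-fold higher, log2 change 0.64, SE 0.13, limma adjusted p = 0.00328). The one at chr10:127597067-127597867 held 176 and 228 in WT and 334 and 343 in GrnKO (log2 change 0.75, SE 0.16, limma adjusted p = 0.00568). The third, chr10:127595939-127596739, held 313 and 329 in WT and 442 and 503 in GrnKO (log2 change 0.55, SE 0.13, limma adjusted p = 0.0120). In all 3 the GrnKO replicates were close to each other and above both WT replicates.

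The other called Lrp1 regions stood alone. In intron 9 of 88, chr10:127593334-127594134 held 89.2 and 103 scaled tags in WT and 148 and 164 in GrnKO (log2 change 0.70, SE 0.20, limma adjusted p = 0.0359). DESeq2 on tags left it at adjusted p = 0.0642. The intergenic region at chr10:127631392-127632192, 10644 bp upstream of the start, held 192 and 225 in WT and 287 and 377 in GrnKO (1.59-fold higher, log2 change 0.66, SE 0.17, limma adjusted p = 0.0167). The GrnKO values were above the WT values in both. All 5 calls were lost without GrnKO replicate 1 (limma adjusted p from 0.0565 to 0.259) and without GrnKO replicate 2 (0.118 to 0.402).

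At the Lrp1 start, chr10:127620756-127621556, the libraries held 230 and 291 scaled tags in WT and 294 and 339 in GrnKO. GrnKO was above WT there by a small gap, and the region did not pass the threshold (log2 change 0.29, SE 0.16, limma adjusted p = 0.283; 0.0301 without WT replicate 2). The strongest Lrp1 region, chr10:127603513-127604313, was in intron 6 too, 17235 bp past the start, and held 511 and 514 scaled tags in WT and 561 and 546 in GrnKO (log2 change 0.11, limma adjusted p = 0.617). Over the 28 tested Lrp1 regions 23 log2 changes were positive, from -0.41 to 0.75 with a median of 0.24, and both GrnKO libraries were above both WT libraries in 20 and below them in 2 (27% and 25.6% of all tested regions).

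Of 5 stretches of Lrp1, 4 had shares that overlapped between genotypes. Intron 6 held 51.3% and 49.9% of the Lrp1 tags in WT and 50.8% and 48.6% in GrnKO and the 3 regions at the start held 11.8% and 13.2% in WT and 12.6% and 13.6% in GrnKO. Upstream intergenic regions held 6.36% and 6.03% in WT and 6.29% and 7.51% in GrnKO, and introns 8 to 21 held from 20.4% to 21.5% in the 4 libraries. Introns 1 and 2 held 10.2% and 9.39% in WT and 8.86% and 9.33% in GrnKO, without overlap, and the two-sided exact permutation test gave p = 0.333, again the smallest possible. A further 9 regions inside the Lrp1 gene are assigned by the table to Nxph4, a neighbouring gene, and of the 5 that could be tested none was called.

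**Figure D3:**
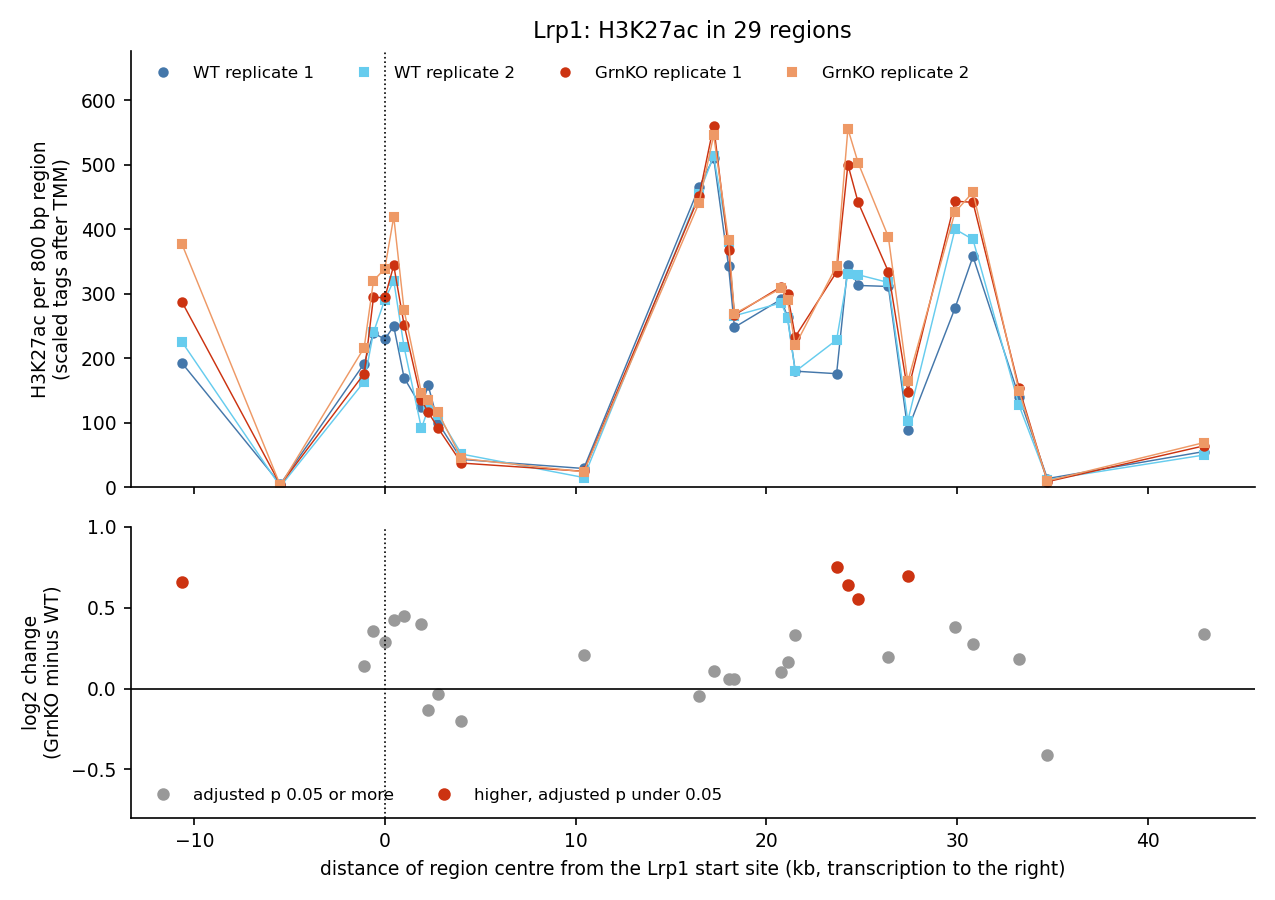
H3K27ac per 800 bp region at Lrp1 in scaled tags after TMM (top) and its log2 change in GrnKO against WT (bottom), by distance in kb of the region centre from the start, in the direction of transcription. The 5 regions called higher are 3 overlapping regions in intron 6, 1 in intron 9 and 1 upstream at 10644 bp.

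Sort1, the gene of the receptor sortilin on chromosome 3, had no called region. At its start, chr3:108283629-108284429, the libraries held 57.5 and 58.1 scaled tags in WT and 27.7 and 32.1 in GrnKO. Both GrnKO replicates were below both WT replicates, but the region did not pass the threshold over all regions (log2 change -0.93, SE 0.31, 95% confidence interval -1.59 to -0.28, limma adjusted p = 0.0693). With the replicate number as a block the limma adjusted p was 0.0442, though numbers are not shown to pair the samples. The next region, 558 bp into intron 1 of 19, held 26.2 and 37.7 in WT and 15.0 and 17.3 in GrnKO (log2 change -0.92, limma adjusted p = 0.188).

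Most Sort1 signal lay farther into intron 1. The strongest region by its WT level, chr3:108297899-108298699, 14235 bp past the start, held 234 and 204 scaled tags in WT and 172 and 178 in GrnKO (log2 change -0.32, limma adjusted p = 0.260). Its neighbour at 12539 bp held 205 and 163 in WT and 190 and 218 in GrnKO, so the groups overlapped there (log2 change 0.16, limma adjusted p = 0.651). Over the 11 Sort1 regions 8 log2 changes were negative, with a median of -0.33. Both GrnKO libraries were below both WT libraries in 6 regions and above them in 1 (25.6% and 27% of all tested regions). The 7 regions inside the Sort1 gene that the table assigns to the next gene, Mybphl, were all tested and none was called. They summed to 718 and 692 scaled tags in WT and 571 and 574 in GrnKO.

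Tmem106b, the gene of the lysosomal membrane protein on chromosome 6, had the lowest sum of the 4 genes and no called region. The region at its start, chr6:13069399-13070199, held 63.7 and 56.8 scaled tags in WT and 73.5 and 61.6 in GrnKO, and the groups overlapped (log2 change 0.16, 95% confidence interval -0.39 to 0.71, limma adjusted p = 0.776). A weak region in intron 2 of 8, chr6:13070237-13071037, held 2.35 and 1.83 scaled tags in WT and 11.6 and 9.46 in GrnKO. It did not pass the threshold (log2 change 1.90, SE 0.85, limma adjusted p = 0.179). The counts behind it were 6.5 WT tags in all and 41 GrnKO tags, counted by read ends. The ratio per library total was 5.88, with an exact 95% interval of 2.43 to 18.4 for counting error only. The interval was taken with the WT tags rounded up and down. Each WT library was near the floor of 3 tags, with 3 and 3.5 tags, against 20.5 in each GrnKO library. The region thus passed the filter on low tags only through GrnKO. The ratio and its interval therefore describe the counts and are no test of a difference. The third region, in intron 3, had 4.69 and 0.786 in WT and 4.53 and 0.692 in GrnKO and was too low to be tested.

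**Figure D4:**
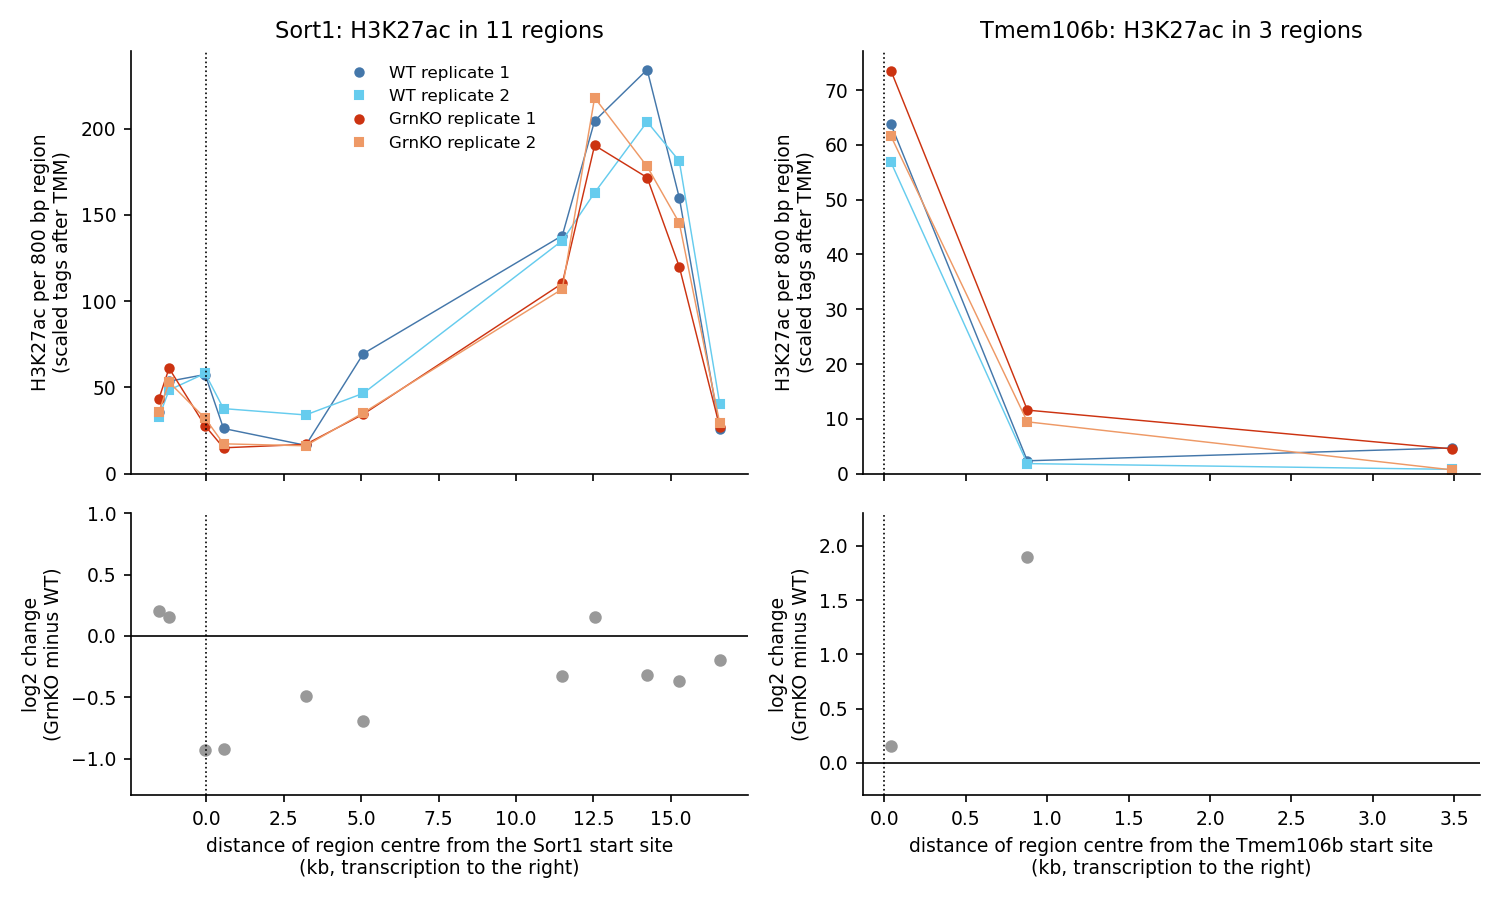
H3K27ac per 800 bp region at Sort1 (left) and Tmem106b (right) in scaled tags after TMM (top) and its log2 change in GrnKO against WT (bottom), by distance in kb of the region centre from the start. No region was called: the Sort1 start region has 57.5 and 58.1 scaled tags in WT against 27.7 and 32.1 in GrnKO, and the Tmem106b start region has overlapping groups.

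Other genes of progranulin and prosaposin trafficking were taken from a list of 32, of which 25 could be tested as gene sums. Of these 4 were higher in GrnKO and none lower (limma, Benjamini-Hochberg adjusted over all genes), which is 16% against 14.4% of all genes. The median log2 change of the list was 0.30, that of all tested genes was -0.01, and 18 of the 25 were positive.

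The largest change was in Gnptab, which encodes subunits of the enzyme that tags lysosomal proteins with mannose 6-phosphate. It summed to 428 and 316 scaled tags in WT and 851 and 648 in GrnKO (log2 change 1.01, SE 0.17, limma adjusted p = 0.000813). Vps29, a subunit of the retromer that returns sortilin and mannose 6-phosphate receptors from endosomes, had 1 region, with 43.6 and 53.6 in WT and 96.1 and 91.4 in GrnKO (log2 change 0.94, SE 0.28, limma adjusted p = 0.0350). In both genes the GrnKO values were above the WT values.

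Lrp6, a relative of Lrp1 that serves as a Wnt co-receptor, summed to 1049 and 1015 in WT and 1522 and 1236 in GrnKO (log2 change 0.41, SE 0.12, limma adjusted p = 0.0307). Tmem106a, a paralogue of Tmem106b, summed to 264 and 212 in WT and 349 and 358 in GrnKO (log2 change 0.57, SE 0.17, limma adjusted p = 0.0320). Without GrnKO replicate 1 the limma adjusted p was 0.308 for Vps29, 0.562 for Lrp6 and 0.208 for Tmem106a, and without GrnKO replicate 2 it was 0.221 for Vps29 and 0.230 for Tmem106a (0.0656 without WT replicate 2). The Lrp6 call was also lost with the authors' scaling (limma adjusted p = 0.0847). With input subtracted none of the 4 was called (limma adjusted p from 0.207 to 0.492). That fit called 0 of 15380 genes, so the loss is not particular to these 4. In the authors' scaling the input of WT replicate 1 held 142 tags at Vps29 against 36.8 of H3K27ac, and 185 at Tmem106a against 223, while the other 3 inputs held 0 to 4.81 at Vps29 and 31.0 to 77.0 at Tmem106a.

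Sorl1, M6pr, Igf2r and Lrpap1 did not pass the test. Sorl1, the sortilin relative with the most signal, summed to 950 and 991 in WT and 891 and 886 in GrnKO (log2 change -0.13, limma adjusted p = 0.538). M6pr and Igf2r, the cation-dependent and cation-independent mannose 6-phosphate receptors, had log2 changes of -0.02 and 0.45 (limma adjusted p = 0.978 and 0.614). Lrpap1, the chaperone of LRP1 and its relatives, had a log2 change of -0.04 (limma adjusted p = 0.956). With the authors' scaling the changes of Sorl1, M6pr and Lrpap1 were 0.062, 0.17 and 0.14, which is -0.11, -0.0045 and -0.04 relative to the median of all genes.

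By role, 1 of 6 tested genes of the mannose 6-phosphate route, 1 of 4 of the retromer, 1 of 6 of the relatives of Lrp1 and their chaperone and 1 of 3 of the Tmem106 family and its protease were called. None of the 5 coat adaptor genes was called, and over all tested genes the share called was 14.4%. Of the sortilin relatives only Sorl1 could be tested, and of the prosaposin receptors Gpr37 and Gpr37l1 neither could.

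**Figure D5:**
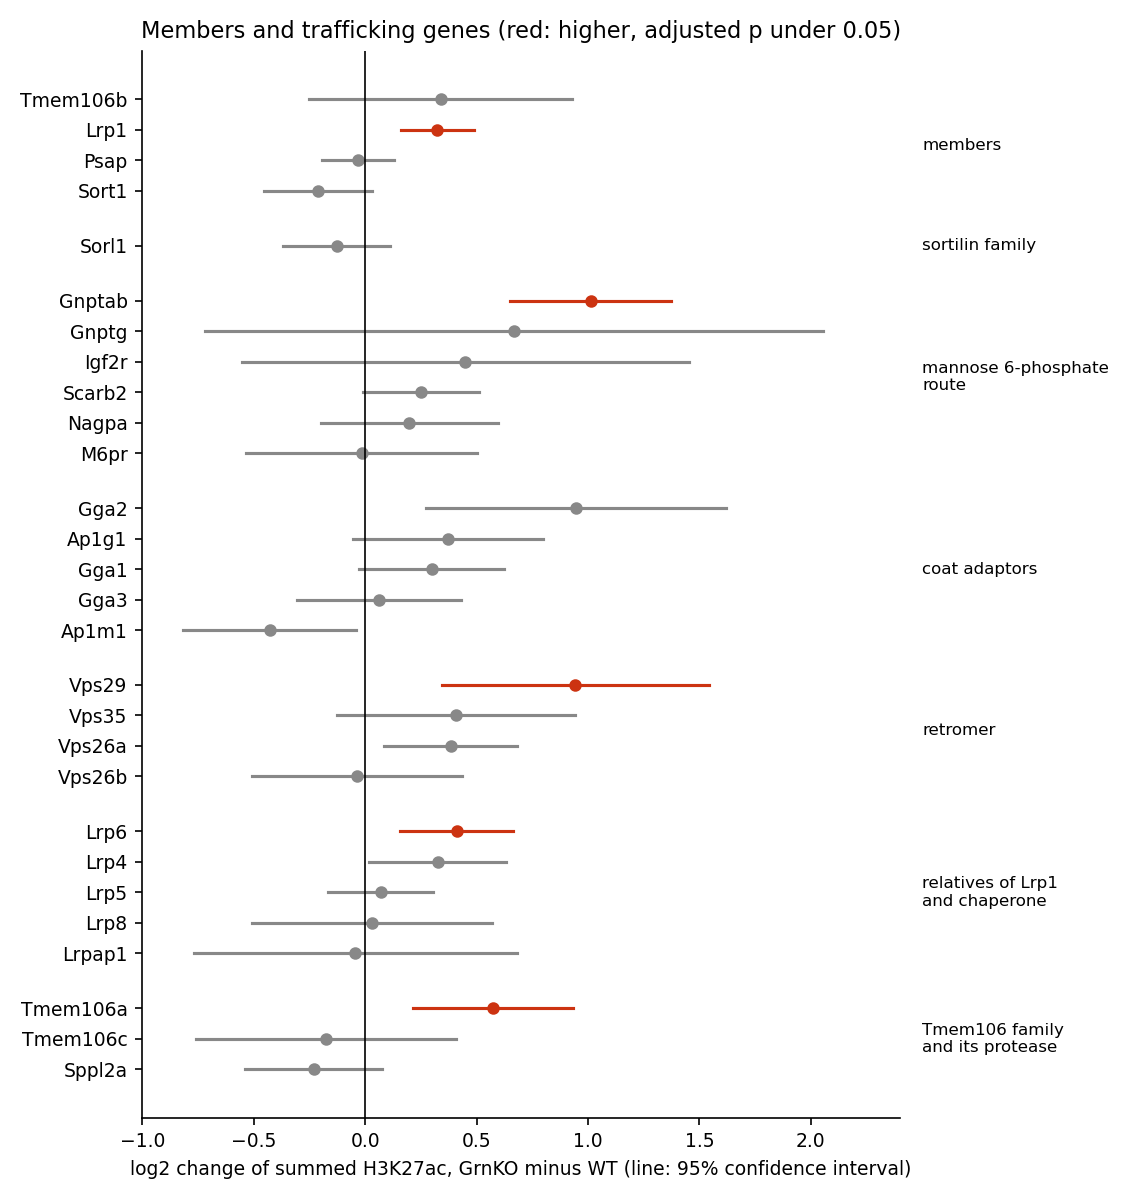
Log2 change of H3K27ac summed per gene in GrnKO against WT with its 95% confidence interval, for the 4 members and tested genes of the trafficking list. Of the members only Lrp1 (0.32) was called, and of the list Gnptab (1.01), Vps29 (0.94), Tmem106a (0.57) and Lrp6 (0.41) were called higher.

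The genes whose pattern over the 4 H3K27ac libraries was nearest to each member were taken by the distance of centred log2 gene sums, among 15379 others. They included Ptpn23 and Cdc42se1 for Psap and were Fkbp1b, Kif27 and Atp6v0c for Lrp1, Ddi2, Kctd5 and Rpl35a for Sort1, and Mettl4, Tuba1c and Mtfp1 for Tmem106b. With 4 libraries many genes are close: a correlation above 0.95 was reached by 235 genes for Psap, 1041 for Lrp1, 925 for Sort1 and 342 for Tmem106b.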

How the data were processed

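H3K27ac ChIP-seq and input were deposited for 2 WT and 2 GrnKO pools of 2 mice. Per the file headers, the authors' values are a signal: tags per region scaled to 10000000 per library, over 800 bp windows merged from ATAC-seq peaks. The submitters' processing notes name mm10, Bowtie2, HOMER and DESeq2. How each was used and how duplicate reads were handled is not given in the sources used here, and duplicates kept or removed would change the tags per region. Coordinates are as in the table.

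Multiplying the deposited signal by the library totals returned whole read ends, 2 per tag, for 100% of values, within 0.0041 to 0.020 read ends by library. Regions were kept by filterByExpr with a minimum of 10 tags. TMM factors (0.825 and 1.04 in WT, 1.08 and 1.08 in GrnKO for regions) were applied, and limma 3.58.1 (trend, edgeR 4.0.16, R 4.3.3) was fitted to log2(value + 1) of the 4 H3K27ac libraries with genotype as the only term, over all regions or over sums of all regions of a gene name. The log2(value + 1) scale understates changes of low regions. Benjamini-Hochberg adjusted p under 0.05 was a call. The tests were tested on simulated data, with the outcome not reported here, and edgeR and DESeq2 1.42.0 on recovered tags were alternatives. A tag in overlapping regions counts in each. Input served as background.

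Replicates differed beyond sampling noise (chi-square per degree of freedom 5.31 in WT and 3.52 in GrnKO). Replicate numbers come from the titles, same-numbered pools are different mice, and nothing links the numbers across genotypes. A floor of 3 tags is 1.50 to 1.94 scaled tags, and floors and count intervals cover counting error only. Reads had no molecular identifiers in the values used.

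The text gives all members, with full statistics for called regions and those at the starts, the called genes of the trafficking list plus Sorl1, Igf2r, M6pr and Lrpap1, Grn as a check, and the 3 nearest genes by pattern. Some genes that this rule covers are not reported here, though counts over lists include them. The strongest regions and the neighbours of named regions were picked with their values in view, which the naming rule does not cover. The members and lists were chosen with earlier results of these data known.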

Additional observations from a re-analysis of the deposited data

How the results depend on the processing

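Of 743 values under alternatives, 579 kept direction and side of the threshold, or moved less than the replicate spread or 1.5 times for counts. Where no value or construction shows the cause, the cause was not tested. With the authors' scaling 9 member regions were called, 0 lower, and 95.2% of called regions of the table were higher (70.0% with TMM). Without the filter 9 were called, 1 lower (80.7% of all called were higher), and at least 2-fold 1, with 1 higher and 0 lower, and 5054 of the table (83.3% higher). Without single replicates, where the lone sample is assumed to vary like the pair, counts were 1334 to 14415 regions, 1 to 25 member regions (1 to 17 higher, 0 to 9 lower), 868 to 3658 genes, and 1 to 7 list genes higher and 0 to 1 lower. Gene counts were 609 from regions within 1000 bp of a start, 185 with means of log2 values, and 0 after subtracting input (limma, 2570 of 15380 at unadjusted p under 0.05).

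Same-numbered samples deviated with a correlation of 0.034 over all tested regions, so no broad shared deviation was seen. Whether the numbers pair samples cannot be told from this value. The replicate block gave 11391 regions, 14 member regions higher and 2977 genes.

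The Psap sum was 0.16 with the authors' scaling (-0.02 relative to the median of all genes), 0.035 without overlaps, 0.0023 over 1000 bp from a start, and 0.092 without regions in another gene (added after seeing the data), and -0.086 to 0.022 without single replicates. Lrp1 was 0.51 with the authors' scaling, 0.38 within 1000 bp, 0.25 as mean log2 and 0.35 after input, none past the threshold (limma adjusted p 0.0807 to 0.307), and 0.27 to 0.38 without single replicates. The first Psap start was -0.12 to 0.77 without single replicates.

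List genes higher were 1 over 1000 bp from a start and 0 with mean log2 and after input, and 1 was lower without overlaps and over 1000 bp. Sorl1 was 0.062 with the authors' scaling, 0.99 within 1000 bp (limma adjusted p = 0.0447) and 0.056 as mean log2. M6pr was 0.17, 0.078 without overlaps and 0.29 over 1000 bp, Igf2r -0.37 after input, and Lrpap1 0.14, 0.0074 within 1000 bp and 0.079 after input. Without single replicates M6pr ranged from -0.19 to 0.16, Igf2r from -0.35 to 1.25 and Lrpap1 from -0.21 to 0.12. Input depth limits the subtraction, since 43.1% to 91.3% of regions had 0 input tags.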
